A study of Mus musculus with 17 samples.

Results

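The genes described here are 10 members of the heat shock chaperone network other than the Hsp70 proteins themselves: the Hsp70 co-chaperones Dnajb1, Bag3 and Hsph1, the cytosolic Hsp90 genes Hsp90aa1 and Hsp90ab1, the mitochondrial chaperonin genes Hspd1 and Hspe1, the small heat shock proteins Hspb1 and Cryab, and the transcription factor Hsf1. They were found by the gene symbol of the platform annotation. Of the 10, 8 had at least 1 probe set, 12 probe sets in all of the 12488 on the array, and Hsp90ab1 and Hsf1 were not analysed here. Of the 12 probe sets, 10 were bright enough to test in the pools. RNA came from mouse brain, grey and white matter of the middle cerebral artery territory, and was read on 17 oligonucleotide arrays. A group of 5 arrays carried 1 brain each, from mice given 1 h of ischemia and, after it, intravenous AEOL 10150 (single treated brains). The other 12 arrays carried pools of 6 brains, 3 pools in each of 4 groups. Treated ischemic pools were given 1 h of ischemia and the drug, and ischemic pools 1 h of ischemia, both with 6 h of reperfusion. Drug control pools were given AEOL 10150 without ischemia and control pools saline, and both were collected 6 h after the injection. AEOL 10150 is a catalytic antioxidant. The labels give no dose, no strain and no age, and do not say whether untreated ischemic mice were injected with saline. A pool averages its 6 brains, so spread between pools is not spread between mice. Titles were followed where they conflict with the descriptions: by its description, drug control pool 1 would have received saline, and treated ischemic pool 1 would have received no drug.

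Heat shock genes are switched on when unfolded protein builds up in the cytosol: the factor Hsf1 is released from chaperones, forms trimers and binds heat shock elements, inverted repeats of the unit GAA, in their promoters. Their products work as a chain. J proteins such as Dnajb1 hand unfolded clients to Hsp70 and speed its ATP hydrolysis, nucleotide exchange factors such as Bag3 and Hsph1 reset Hsp70, Hsp90 finishes the folding of many kinases and receptors, and small heat shock proteins hold unfolded chains without using ATP. Hsp60 (Hspd1) and Hsp10 (Hspe1) form the folding chamber of the mitochondrial matrix. Brain that survives a short arterial occlusion is known for strong induction of this network during reperfusion.

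Promoter windows from RefSeq (build GRCm38.p6), 250 bases before to 50 after a transcript start, matched 6 of the 10 members by symbol: Dnajb1, Bag3, Hsph1, Hspb1, Hspd1 and Hspe1. The windows shown are those of the 3 genes that rose over both drug arms, Dnajb1, Bag3 and Hsph1, and of Hspe1, whose window holds the longest run of the element. Both 2-unit forms of the heat shock element were searched, TTCNNGAA and GAANNTTC, each of which reads the same on both strands, with the 3-unit TTCNNGAANNTTC and the 4-unit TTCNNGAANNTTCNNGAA searched on both strands and from either unit. Capitals mark the matches, which overlap each other in the longer runs. Sequences run 5′ to 3′ on the strand of the gene.
Hsph1, chr5:149636287-149636586, minus strand: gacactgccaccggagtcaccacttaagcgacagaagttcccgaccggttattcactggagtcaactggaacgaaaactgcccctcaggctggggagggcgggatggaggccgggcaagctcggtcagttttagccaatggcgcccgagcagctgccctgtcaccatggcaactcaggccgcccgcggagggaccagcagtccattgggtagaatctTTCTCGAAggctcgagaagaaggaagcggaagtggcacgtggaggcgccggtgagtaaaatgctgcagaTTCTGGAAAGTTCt
Hspe1, chr1:55087898-55088197, plus strand: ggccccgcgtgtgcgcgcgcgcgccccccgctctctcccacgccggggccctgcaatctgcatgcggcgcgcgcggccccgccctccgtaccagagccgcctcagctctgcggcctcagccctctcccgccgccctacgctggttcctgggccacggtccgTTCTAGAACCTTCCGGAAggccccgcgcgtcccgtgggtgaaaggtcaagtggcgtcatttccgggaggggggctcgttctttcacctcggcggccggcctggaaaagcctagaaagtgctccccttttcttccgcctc
Bag3, chr7:128523333-128523632, plus strand: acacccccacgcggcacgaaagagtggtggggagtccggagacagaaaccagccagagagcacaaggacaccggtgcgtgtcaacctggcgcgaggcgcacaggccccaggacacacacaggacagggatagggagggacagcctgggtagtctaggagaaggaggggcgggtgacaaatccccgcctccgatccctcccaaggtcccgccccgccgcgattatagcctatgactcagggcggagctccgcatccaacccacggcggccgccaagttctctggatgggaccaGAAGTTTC
Dnajb1, chr8:83607925-83608224, plus strand: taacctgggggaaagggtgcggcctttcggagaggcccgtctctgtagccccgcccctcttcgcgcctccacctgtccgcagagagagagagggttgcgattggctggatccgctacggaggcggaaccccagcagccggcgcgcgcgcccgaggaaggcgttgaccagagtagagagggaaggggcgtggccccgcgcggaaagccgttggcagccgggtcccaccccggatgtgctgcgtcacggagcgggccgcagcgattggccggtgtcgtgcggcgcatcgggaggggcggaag

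The Hsph1 window shown held TTCTCGAA at positions -33 to -26 from the start and the 3-unit run TTCTGGAAAGTTC at positions 37 to 49. In a second Hsph1 window, from another transcript start, the same matches lay at positions -54 to -47 and 16 to 28. In the Hspe1 window the 4-unit run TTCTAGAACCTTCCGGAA lay at positions -89 to -72. Hspd1 and Hspe1 are divergent neighbours, and 1 of the Hspd1 windows shared 285 bases with the Hspe1 window on the opposite strand, so this run is also at positions -144 to -127 of Hspd1. Bag3 had GAAGTTTC at positions 43 to 50, and Hspb1 had 2 matches, GAAGTTTC at positions -117 to -110 and GAACCTTC at positions -97 to -90. The Dnajb1 windows held none of these letters. Among 32851 mouse windows of 300 bases, 15.1% held a 2-unit form, 0.603% the 3-unit form and 0.0244% the 4-unit form. A match is a description of the sequence, and binding was not measured.

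Levels below are log2 intensities after every array was rescaled to the same trimmed mean, with a floor of 6.77. As deposited, treated ischemic pools 2 and 3 and the 5 single brains were on a lower scale than the other 10 arrays. The 7 neuron and 7 astrocyte markers measured were above the floor on all 17 arrays, as were 5 of 7 oligodendrocyte markers, with Ugt8a above it on 14 and Cnp on 1. The summed intensity of the 7 neuron markers measured was between 121679 and 198327. Summed levels of 2 blood cell lists were higher in ischemic than in control pools. The summed intensity of the 3 red cell markers measured was 8144 to 11194 in ischemic pools, against 3111 to 4438 in control pools, and 3439 to 9512 in treated ischemic pools, against 2790.2 to 5165 in drug control pools. For the 7 neutrophil markers the sums were 9009 to 11229 in ischemic pools, against 7169.6 to 8765 in control pools, and 7417 to 12141 in treated ischemic pools, against 6766 to 9098 in drug control pools, with Ngp at the floor on every array. Of these, S100a8 passed over both drug arms at 1.35 (adjusted p 0.0331 by limma), and the red cell marker Hba-a1 differed by 1.25 (adjusted p 0.221). The other red cell markers differed by 0.16 (Alas2) and -0.60 (Slc4a1). The other neutrophil markers tested differed by 0.56 (S100a9), 0.55 (Camp), 0.35 (Elane), 0.18 (Lcn2) and -0.13 (Mpo), and none of them passed. The part of blood cells in the results below was not tested. In pools of whole tissue, more cells of a type and more RNA per cell cannot be told apart.

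Dnajb1, the inducible cytosolic J protein that delivers clients to Hsp70, had the largest rise of the members. Its probe set (96254_at) read 14.01, 13.58 and 13.91 in ischemic pools 1 to 3, against 12.04, 11.50 and 11.34 in control pools 1 to 3. With the drug it read 13.92, 13.31 and 14.00 in treated ischemic pools, against 12.17, 11.47 and 11.73 in drug control pools. All 6 ischemic pools lay above all 6 pools without ischemia. The ischemia difference averaged over both drug arms was 2.08 on the log2 scale (SE 0.20), which is 4.22-fold (95% confidence interval 3.11 to 5.72), with an adjusted p of 0.00106 by limma over all probe sets tested. By p it ranked 8 of 10259 probe sets. Pool for pool the ischemic minus control difference was 1.97, 2.07 and 2.56. On the single treated brains it read 13.65, 13.91, 13.45, 14.32 and 13.95 in brains 11, 12, 13, 14 and 16, again above every pool without ischemia.

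**Figure D1:**
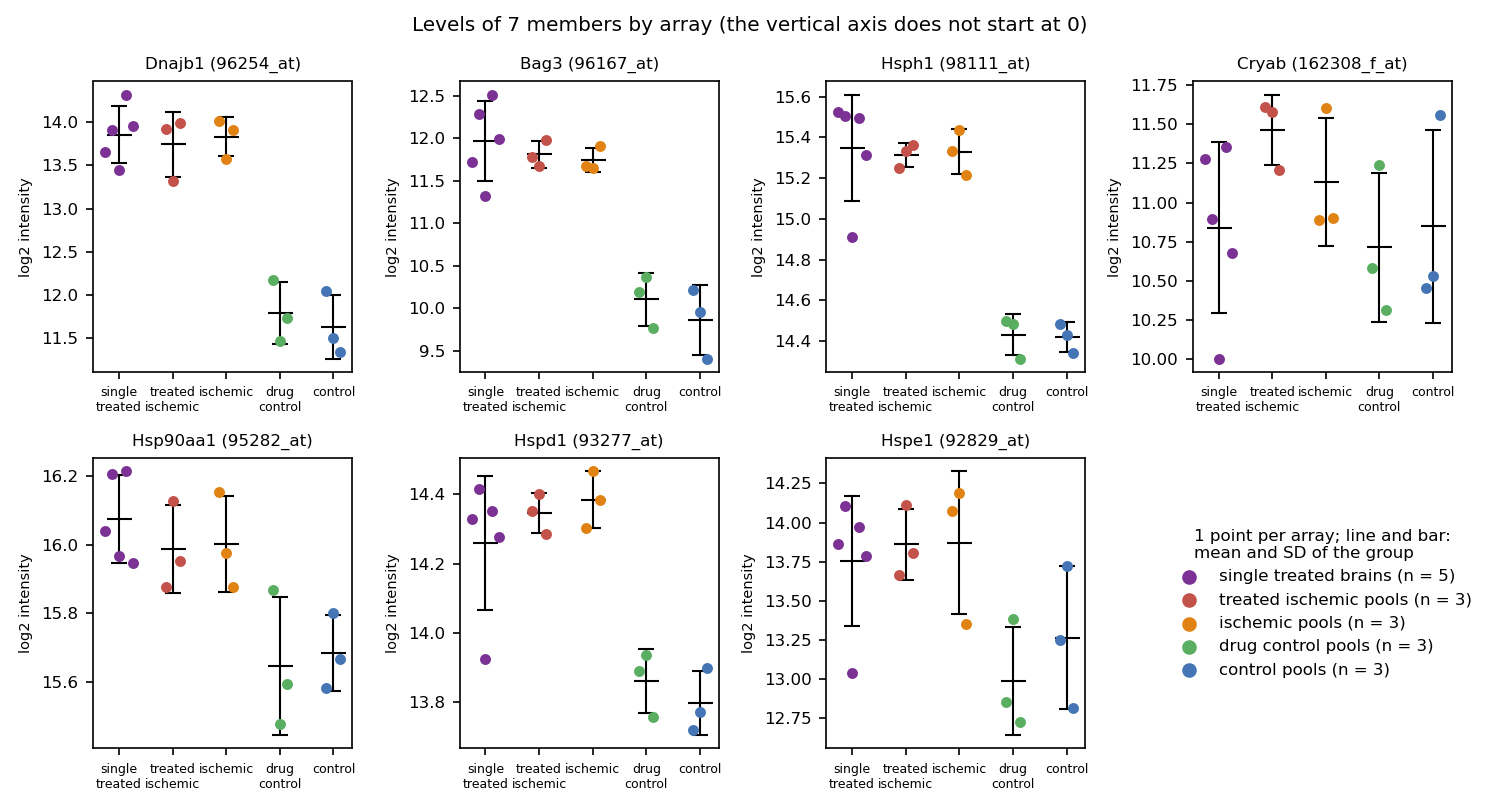
Log2 intensity of the 7 members with a probe set above the floor, 1 panel per gene, 1 point per array, with the mean and SD of each group; from left to right the groups are single treated brains, treated ischemic pools, ischemic pools, drug control pools and control pools. Dnajb1, Bag3 and Hsph1 separate every ischemic array from every array without ischemia, as does Hsp90aa1 by a narrow margin, while the groups overlap for Cryab.

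Bag3, which couples Hsp70 to small heat shock proteins and to selective autophagy of aggregated clients, rose almost as much. The probe set 96167_at read 11.67, 11.65 and 11.90 in ischemic pools, against 10.21, 9.96 and 9.41 in control pools. Treated ischemic pools read 11.77, 11.68 and 11.98, against 10.18, 10.37 and 9.76 in drug control pools. These groups did not overlap either, and the values within each ischemic group lay close together. Over both arms the difference was 1.79 (SE 0.17), 3.47-fold (95% confidence interval 2.66 to 4.53), with an adjusted p of 0.00106 by limma. A further Bag3 probe set, 161980_f_at, of the kind whose suffix marks probes that can match related sequences, was dimmer and more variable. It read 11.08, 10.86 and 9.87 in ischemic pools, against 8.84, 8.55 and 7.87 in control pools, and 10.11, 10.36 and 10.14 in treated ischemic pools, against 8.80, 9.39 and 7.55 in drug control pools. Its difference over both arms was 1.90 (SE 0.33), with an adjusted p of 0.0429 by limma. Both probe sets thus moved the same way, by like amounts, and count as 1 gene.

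Hsph1, the Hsp110 chaperone that exchanges nucleotide on Hsp70 and helps it take apart aggregates, rose less and with little scatter. Its probe set 98111_at read 15.33, 15.44 and 15.22 in ischemic pools, against 14.49, 14.43 and 14.34 in control pools. With the drug the values were 15.25, 15.33 and 15.36 in treated ischemic pools, against 14.50, 14.48 and 14.31 in drug control pools. The spread within any pooled group was small beside the gap between the ischemic and the other pools. The difference over both arms was 0.90 (SE 0.11), 1.86-fold (95% confidence interval 1.58 to 2.20), with an adjusted p of 0.00554 by limma, rank 14 by p. Pool for pool, ischemic minus control was 0.85, 1.00 and 0.88.

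Hsp90aa1, the stress-inducible cytosolic Hsp90, was bright everywhere and did not pass the test. Its brighter probe set 95282_at read 16.15, 15.97 and 15.88 in ischemic pools, against 15.58, 15.80 and 15.67 in control pools. In treated ischemic pools the values were 15.88, 16.13 and 15.95, against 15.87, 15.48 and 15.59 in drug control pools. Every ischemic pool lay above every pool without ischemia, by a narrow margin. The lowest of the former, ischemic pool 3, read 15.876, and the highest of the latter, drug control pool 1, read 15.869. The difference over both arms was 0.33 (95% confidence interval 0.05 to 0.60), with an adjusted p of 0.816 by limma. The dim probe set 161869_i_at lay near the floor, between 6.77 and 8.74, with overlapping groups and a difference over both arms of -0.23 (95% confidence interval -1.05 to 0.58).

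The mitochondrial pair had higher values after ischemia that fell short of the threshold. Hspd1, the chamber-forming Hsp60, read 14.30, 14.47 and 14.38 (93277_at) in ischemic pools, against 13.72, 13.77 and 13.90 in control pools. In treated ischemic pools it read 14.35, 14.40 and 14.28, against 13.89, 13.94 and 13.76 in drug control pools. All 6 ischemic pools were above all 6 others. The difference over both arms was 0.54 (SE 0.11), 1.45-fold (95% confidence interval 1.23 to 1.71), with an adjusted p of 0.0852 by limma. It passed in 4 alternatives, at an adjusted p by limma of 0.0323 with a floor at the 40th percentile, 0.0023 with no filter on low values, 0.00556 with an intensity trend and 0.00711 with that trend and a robust fit. The second Hspd1 probe set, 161140_r_at, ranged from 8.61 to 11.17 over the pools, with groups that overlapped and a difference of -0.04 (95% confidence interval -1.05 to 0.98). That interval holds the whole interval of the first probe set.

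Hspe1, the Hsp10 lid of the same chamber, read 14.08, 14.19 and 13.35 (92829_at) in ischemic pools, against 13.25, 13.72 and 12.81 in control pools. Treated ischemic pools read 13.67, 14.11 and 13.81, against 12.85, 13.38 and 12.72 in drug control pools. Groups overlapped without the drug, through ischemic pool 3, and did not overlap with it. The difference over both arms was 0.74 (SE 0.22), 1.67-fold (95% confidence interval 1.19 to 2.35), with an adjusted p of 0.451 by limma. Pool 3 was the lowest in the ischemic, the drug control and the control group, and pool for pool the ischemic minus control difference was 0.82, 0.47 and 0.54. The ratio of 3′ to 5′ signal of beta-actin, which is lower where RNA is more intact, was lowest in those 3 pools. It was 1.17, 1.15 and 1.19, against 1.33 to 2.14 in pools 1 and 2 of the same groups. The Gapdh ratio was lowest in pool 3 only in the drug control group, at 1.04. It was 1.06 in ischemic pool 3 and 1.09 in control pool 3, against 0.97 and 0.98 in pool 1 of these groups. The part of these ratios in the Hspe1 values was not tested.

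Of the small heat shock proteins, Cryab did not pass the test and Hspb1 was not tested. Cryab, alphaB-crystallin, a chaperone of astrocytes, oligodendrocytes and muscle, read 10.89, 11.60 and 10.90 (162308_f_at) in ischemic pools, against 10.46, 10.53 and 11.56 in control pools. In treated ischemic pools it read 11.61, 11.58 and 11.21, against 10.58, 11.24 and 10.32 in drug control pools. Groups overlapped in both arms, with control pool 3 among the highest values. The difference over both arms was 0.52 (95% confidence interval -0.04 to 1.08), with an adjusted p of 1.00 by limma. Summed intensity of the 7 oligodendrocyte markers measured was 119128 to 139517 in ischemic pools, against 97182 to 121447 in control pools, and its part in the Cryab values was not tested. The other Cryab probe set, 93279_at, was above the floor on 3 arrays, at 7.06 and 7.34 in single treated brains 13 and 16 and lower still in treated ischemic pool 3, and was not tested. Cryab 162308_f_at has the suffix of the dimmer Bag3 probe set, which marks probes that can match related sequences. The Cryab probe sets thus disagree on whether the gene was above the floor, and which of them reads Cryab was not tested. Hspb1 (92853_at), the Hsp25 protein that guards the actin skeleton, was at the floor on all 17 arrays, so these data set no level for it in any group.

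Over both drug arms, 4 of the 10 member probe sets tested passed the threshold of an adjusted p under 0.05, all higher: Dnajb1, both of Bag3 and Hsph1. Of all 10259 probe sets tested, 0.448% passed in this comparison and 0.439% passed with a higher level. The median difference was 0.64 over the member probe sets and 0.01 over all probe sets. Between ischemic and control pools alone, 2 of 10 passed, Dnajb1 at 2.20 (adjusted p 0.0149) and Bag3 96167_at at 1.88 (adjusted p 0.0155) by limma, where 0.214% of all passed. Between treated ischemic and drug control pools the same 2 passed, Dnajb1 at 1.95 and Bag3 at 1.71 (both adjusted p 0.0385 by limma), where 0.0877% of all passed. Hsph1 differed by 0.91 (adjusted p 0.0555) without the drug and by 0.88 (adjusted p 0.132) with it, and passed with both arms together. All arrays of the ischemic group lay above all arrays of the other for 7 of 10 probe sets with the drug, where 3.75% of all did, and for 6 of 10 without it, where 4.07% of all did.

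The ischemic, drug control and control pools were taken as paired by number from how these arrays deviated together, since the labels do not say what the numbers mark. With the number as a block, the comparison without the drug called 4 member probe sets, adding Bag3 161980_f_at and Hsph1 (both adjusted p 0.0356 by limma). The same block without the treated ischemic pools called Dnajb1 alone. With 1 array left out, Dnajb1, Bag3 96167_at and Hsph1 passed over both arms in all 12 such fits, at an adjusted p of at most 0.0253 by limma, and Bag3 161980_f_at in 3 of 12, at 0.0282 to 0.139. Within a single arm the calls were lost when some pools were left out. Without the drug, Dnajb1 had an adjusted p of 0.0646 without control pool 2, and 0.0962, 0.0553 and 0.0711 without ischemic pool 1, 2 or 3. For Bag3 96167_at these were 0.0646, 0.0962, 0.0695 and 0.0762. With the drug, leaving out any of the 6 pools gave 0.0550 to 0.231 for Dnajb1 and 0.0782 to 0.231 for Bag3 96167_at. Removing both pools whose labels conflict left Dnajb1 and Bag3 96167_at past the threshold over both arms, and Hsph1 at an adjusted p of 0.0504 by limma.

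**Figure D2:**
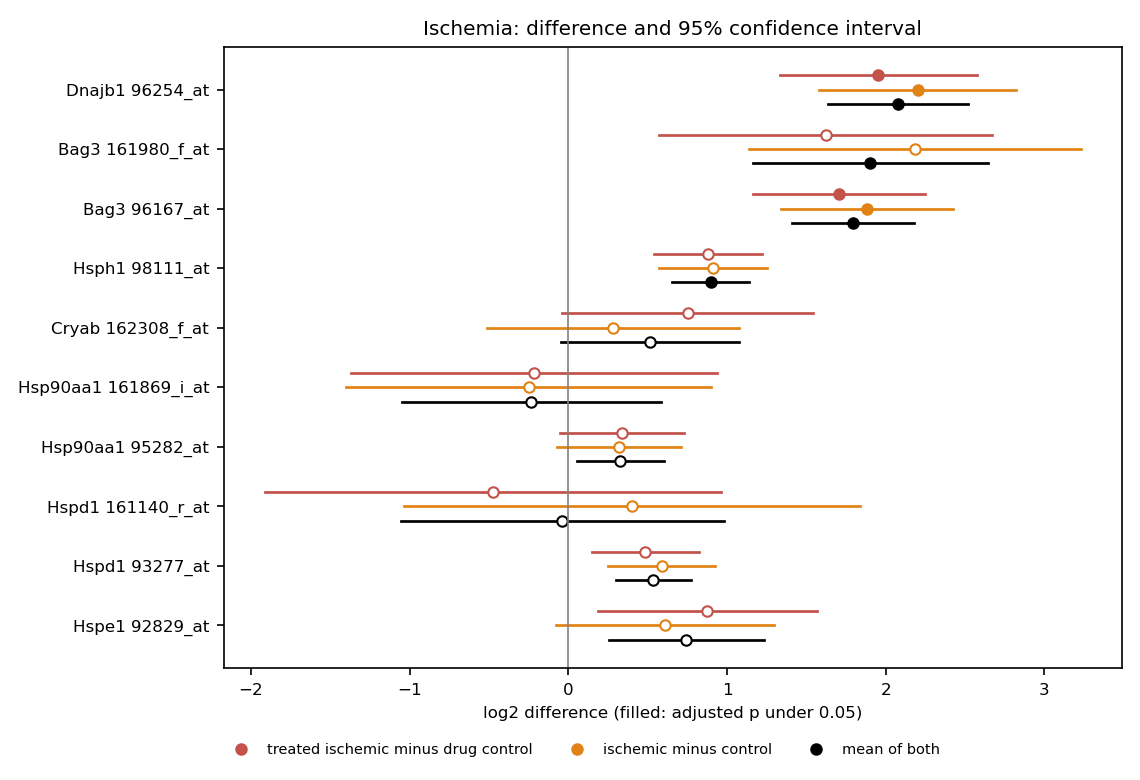
Log2 difference with ischemia and its 95% confidence interval for the 10 member probe sets tested, in the arm with the drug (treated ischemic minus drug control), the arm without it (ischemic minus control) and as the mean of both; filled points have an adjusted p under 0.05. Dnajb1 and Bag3 lie near 2, Hsph1 near 1, and the intervals of the others cross 0 in at least 1 arm or lie below 1.

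No member probe set passed the test between drug-treated and untreated pools. After ischemia, 0 of 10 member probe sets passed the limma test in treated ischemic against ischemic pools, and 0 had an unadjusted p under 0.05, where 0.00975% of all probe sets passed and 1.47% had an unadjusted p under 0.05. The difference for Dnajb1 was -0.09 (95% confidence interval -0.71 to 0.53), so that the data allow a change to between 0.61 and 1.45 times the ischemic level. For Bag3 96167_at it was 0.07 (95% confidence interval -0.47 to 0.61). The narrowest interval belonged to Hspd1 93277_at, at -0.04 (-0.37 to 0.30), with Hsph1 close to it at -0.02 (-0.36 to 0.32). These intervals leave room for smaller drug effects, and for Dnajb1, Bag3 96167_at and Hsph1 their lower bounds are smaller in size than the ischemia differences given above.

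Without ischemia, 0 of 10 passed in drug control against control pools by limma, also with 0 at an unadjusted p under 0.05, where 0.00975% and 2.57% of all did. Dnajb1 differed by 0.16 (95% confidence interval -0.46 to 0.78) and Hsph1 by 0.01 (-0.33 to 0.35). The ischemia response with the drug minus that without it was -0.25 for Dnajb1 (-1.13 to 0.63), -0.18 for Bag3 96167_at (-0.94 to 0.59) and -0.03 for Hsph1 (-0.51 to 0.45). In that test 0 of 10 passed and 0 had an unadjusted p under 0.05 by limma, where 0% and 2.08% of all probe sets did. The widest interval was that of Hspd1 161140_r_at, -2.91 to 1.15, and sets little limit on a drug effect.

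**Figure D3:**
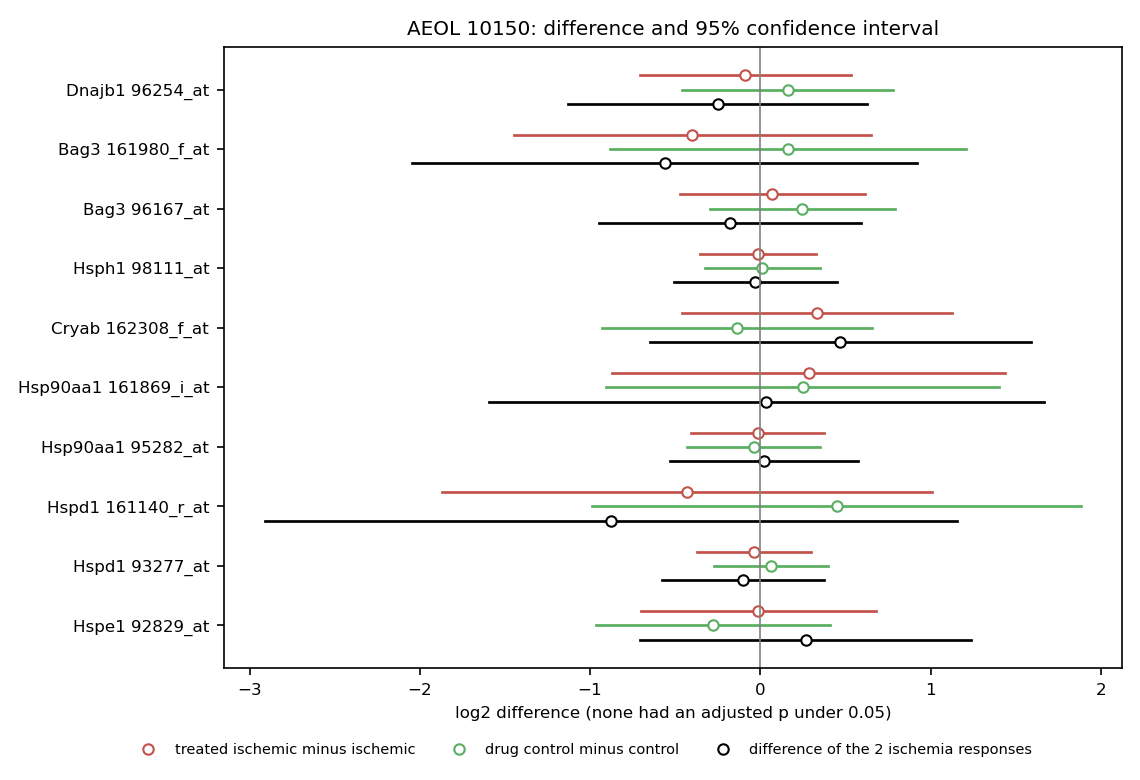
Log2 difference with AEOL 10150 and its 95% confidence interval for the 10 member probe sets tested: treated ischemic minus ischemic pools, drug control minus control pools, and the ischemia response with the drug minus that without it. Every interval crosses 0, and those of Hsph1 and Hspd1 93277_at are the narrowest in the first 2 comparisons.

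The 5 single treated brains give the levels in individual mice. Against drug control pools, 3 of 10 member probe sets passed, all higher, where 6.51% of all probe sets passed and 2.91% passed with a higher level. Dnajb1 was higher by 2.07 (SE 0.24, adjusted p 0.00464), Bag3 96167_at by 1.86 (SE 0.28, adjusted p 0.0132) and Hsph1 by 0.92 (SE 0.17, adjusted p 0.0252) by limma. For 5 of 10 probe sets every brain was above every drug control pool, where 8.9% of all were, and for 1, Hspd1 161140_r_at, every brain was below, where 12.1% of all were. The second Bag3 probe set, 161980_f_at, was among the 5 and had an adjusted p of 0.0681 by limma. These brains differ from the drug control pools in ischemia, in being 1 brain each and in the deposited scale, which cannot be told apart. The red cell and neutrophil sums of the brains, 2067 to 5415 and 6329.6 to 9133, overlapped those of the drug control pools. Hsph1 lost its call without drug control pool 3 (adjusted p 0.0799) or without brain 11, 12, 14 or 16 (0.0529 to 0.0602), and Bag3 161980_f_at gained 1 without drug control pool 2 (0.0398 by limma).

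Levels varied between the single brains, each of which is 1 array, so this variation was not tested. Brain 14 had the highest value of 4 of the 7 genes with a usable probe set and brain 13 the lowest of 6 of 7. Bag3 96167_at read 11.72 in brain 11, 12.28 in brain 12, 11.32 in brain 13, 12.51 in brain 14 and 11.99 in brain 16. Hsph1 read 15.53, 15.50, 14.91, 15.49 and 15.31 in the same order. Brain 13 was thus below all ischemic pools for both genes and still above all drug control pools. Hspe1 read 13.86, 14.11, 13.04, 13.97 and 13.79, with brain 13 under the highest drug control pool. Hspd1 93277_at read 14.33, 14.41, 13.92, 14.35 and 14.28, where brain 13 was 0.01 under the highest drug control pool (13.94). Brains 11 and 14 were above every drug control pool for 7 of 7 genes, brains 12 and 16 for 6 and brain 13 for 4. These counts, and those of highest and lowest values, cover the members only. They were not made over all probe sets, so they do not show whether a brain differs across the whole array. Against the ischemic pools, 0 of 10 passed by limma and 0 had an unadjusted p under 0.05, where 1.84% and 23.2% of all did. The differences there were 0.02 for Dnajb1 (95% confidence interval -0.47 to 0.52) and 0.22 for Bag3 96167_at (-0.39 to 0.84).

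**Figure D4:**
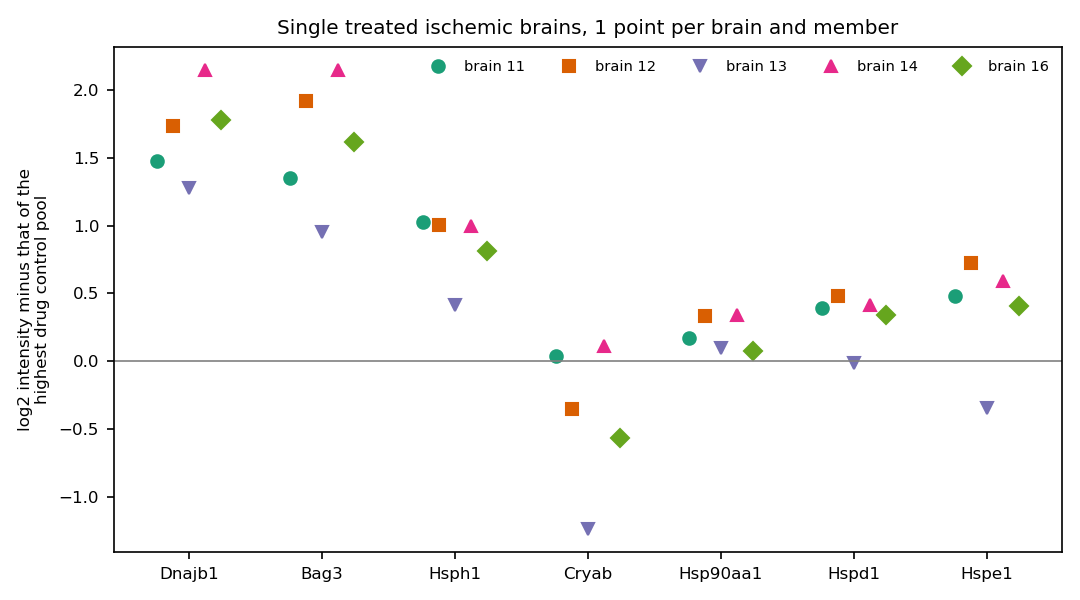
Log2 intensity of each single treated brain minus that of the highest drug control pool, for the brightest probe set of 7 members; 1 point per brain. Points above 0 exceed every drug control pool: all 5 brains do for Dnajb1, Bag3, Hsph1 and Hsp90aa1, and brain 13 is below 0 for Cryab, Hspd1 and Hspe1.

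Of 89 other genes of the chaperone network listed, 66 were tested, and over both drug arms 3 rose and 0 fell, where 0.439% of all probe sets rose. The median difference was 0.08 over the 66 and 0.01 over all probe sets. The 3 were Hspa1a at 4.21 and Hspa1b at 4.59, the inducible Hsp70 genes, and Serpinh1 at 1.35 (adjusted p 0.0221 by limma), the collagen chaperone of the endoplasmic reticulum. Hspa1a and Hspa1b are near-identical, so their probe sets cannot be taken to read them apart. Serpinh1 read 11.29, 10.78 and 10.93 in ischemic pools, against 10.26, 10.08 and 9.59 in control pools, and 10.96, 10.71 and 11.81 in treated ischemic pools, against 9.68, 9.30 and 9.49 in drug control pools. Its groups did not overlap in either arm. Of 17 other DnaJ proteins, 8 BAG and exchange factors with Chip and Hip, 12 Hsp90 paralogs and co-chaperones, 3 small heat shock proteins and 13 TRiC and prefoldin subunits, 0 passed by limma. Among J proteins, Dnaja1 was 0.32 higher (adjusted p 0.776) and Dnajb4, with wide scatter, 0.98 higher (adjusted p 1.00). The constitutive Hspa8 differed by 0.24 (95% confidence interval -0.06 to 0.53). Hspb8, the small heat shock protein that works as a partner of Bag3, read 11.21, 11.47 and 11.70 in ischemic pools, against 10.97, 11.31 and 11.04 in control pools. With the drug it read 11.29, 11.64 and 11.96 in treated ischemic pools, against 11.20, 11.32 and 11.21 in drug control pools. Its groups overlapped in both arms, with a difference over both of 0.37 (adjusted p 0.921 by limma). Differences over both arms were 0.39 for Hspb2, 0.29 and -0.25 for the mitochondrial exchange factors Grpel1 and Grpel2, 0.21 for the Hsp90 immunophilin Fkbp4, 0.20 and 0.14 for the prefoldin subunits Pfdn2 and Vbp1, and 0.13 for the autophagy receptor Sqstm1, each with a 95% confidence interval that includes 0.

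Fkbp5, an immunophilin that binds Hsp90 in steroid receptor complexes and is induced by glucocorticoids, had the lowest ischemia difference of the listed genes. It read 11.91, 12.38 and 12.17 in ischemic pools, against 13.05, 12.87 and 13.00 in control pools. In treated ischemic pools it read 12.53, 12.32 and 12.56, against 12.91, 13.23 and 13.09 in drug control pools. Groups did not overlap in either arm, with a difference over both of -0.71 (SE 0.13) and an adjusted p of 0.0507 by limma, just outside the threshold.

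In single treated brains against drug control pools, 8 of the 66 rose and 2 fell, where 2.91% of all probe sets rose and 3.6% fell. Besides Hspa1a, Hspa1b and Serpinh1, at 4.11, 4.53 and 2.16, the 8 included the Hsp90 co-chaperones Cdc37, which brings kinases to Hsp90, at 0.63 (adjusted p 0.0192), and Stip1, the Hop adaptor between Hsp70 and Hsp90, at 0.50 (adjusted p 0.0438). They also included the ubiquitin ligase Chip (Stub1) at 0.61, the Hsp70-interacting protein Hip (St13) at 1.20 and the endoplasmic reticulum Hsp70 Hspa5 at 0.57. Cdc37 read 13.41, 13.47, 13.52, 13.52 and 13.54 in the 5 brains, above the 12.89, 12.78 and 12.90 of the drug control pools. In the pools Cdc37, Stip1, Stub1 and St13 differed by 0.05, 0.14, 0.09 and 0.49 over both arms, with intervals that include 0. Hspa5 read 14.53, 14.33 and 14.16 in ischemic pools, against 13.96, 13.68 and 13.33 in control pools, and 14.10, 14.15 and 14.10 in treated ischemic pools, against 13.79, 13.66 and 13.55 in drug control pools. All 6 ischemic pools were above all 6 others for Hspa5, with a difference over both arms of 0.57 (95% confidence interval 0.26 to 0.88, adjusted p 0.235 by limma). Dnajc3, a J protein of the endoplasmic reticulum, was lower by 0.78 (adjusted p 0.0298) and Odf1, a sperm tail protein of the small heat shock family, by 0.86 (adjusted p 0.0484) by limma. Neither passed for ischemia in the pools. Odf1 read 8.92 to 9.42 in the brains, 9.56 to 10.34 in drug control, 7.74 to 10.53 in control, 9.24 to 10.38 in ischemic and 9.31 to 10.42 in treated ischemic pools. For Dnajc3 these were 9.82 to 10.25, 10.57 to 11.02, 9.98 to 10.85, 10.49 to 10.72 and 10.05 to 10.55.

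**Figure D5:**
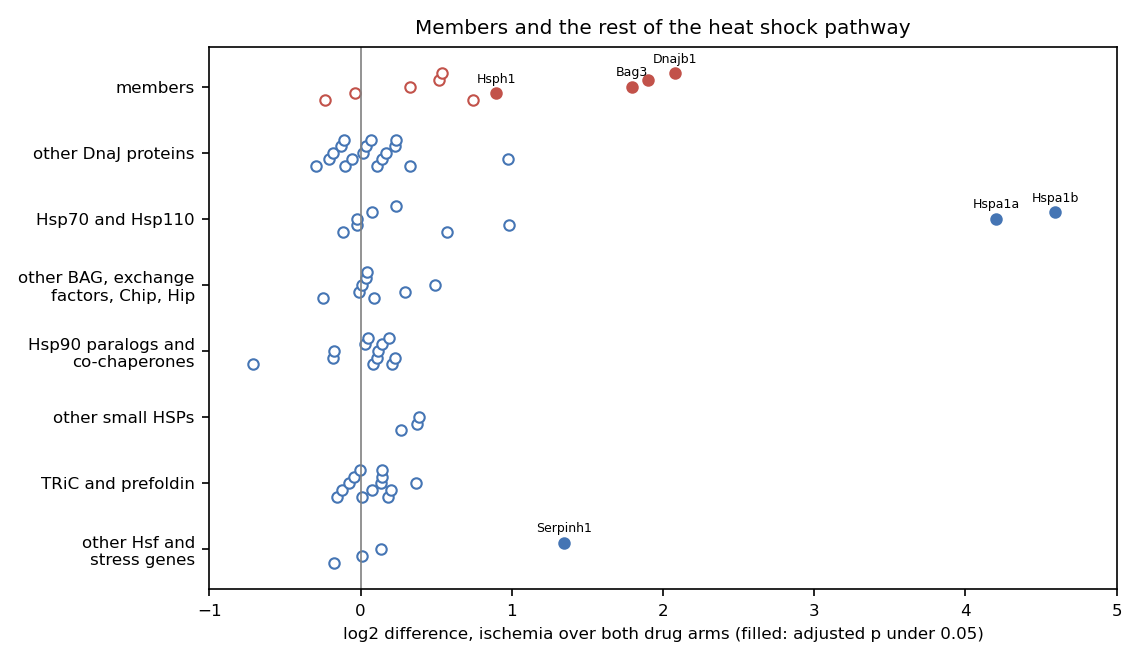
Log2 difference with ischemia over both drug arms for the member probe sets and, by list, for the brightest probe set of 66 other chaperone genes; filled points have an adjusted p under 0.05 and are named. Hspa1a and Hspa1b lie beyond 4, Dnajb1 and Bag3 near 2, Serpinh1 at 1.35, Hsph1 at 0.90, and most of the others within 0.5 of 0.

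Over the 12 pools, the profiles most like those of the members were taken from 9073 named probe sets by Pearson's r, as a description of arrays that share the step between ischemic and other pools. For Dnajb1 they were Hspa1b (r = 0.99), Hspa1a (r = 0.98) and the immediate early gene Ier2 (r = 0.98). Bag3 was closest to Hspa1a (r = 0.98), the immediate early factor Egr1 (r = 0.98) and the gap junction gene Gjb2 (r = 0.97). Closest to Hsph1 were Hspa1a (r = 0.98), Btg1 (r = 0.98) and Gadd45g (r = 0.98). Hspd1 was nearest to the stress factor Atf3 (r = 0.97), and Hspe1 to Spsb1 (r = 0.95) and the DNA damage gene Gadd45a (r = 0.95). For Hsp90aa1 the chemokine gene Ccl2 came first (r = 0.87), and for Cryab the keratin gene Krt18 (r = 0.91).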

How the data were processed

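The authors deposited linear intensities for every probe set, of which 15.2% to 19.3% per array were below 0; their software is not given in the sources used here. The mean between the 2nd and 98th percentiles was 2500 on 10 arrays and 129 to 210 on 7. Each array was rescaled to a trimmed mean of 2500. A floor of 109.5, the 25th percentile over the scaled pools, replaced lower values before log2. The array's own 66 control probe sets were not tested. Symbols came from the platform annotation: 10855 probe sets had 1 symbol, 396 several and 1237 none.

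A probe set was tested if it exceeded the floor on 3 or more of the fitted arrays, with limma 3.58.1 in R 4.3.3 (lmFit and eBayes, two-sided). The 12 pools were fitted together (10259 probe sets, 8 residual and 2.23 prior degrees of freedom), and the single brains with each pooled group (9907 and 9889 probe sets). Benjamini-Hochberg adjustment ran over all probe sets tested in a comparison, with a threshold of 0.05. For 3 arrays against 3, the smallest exact permutation p is 0.1. Nothing in the labels says the pools of a group came from separate experiments, so p-values concern the spread between these arrays. The number of arrays limits the precision.

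Groups follow the titles, except that the single brains were set apart by their descriptions; the brain called 11 here is numbered 4 in its title, and treated ischemic pool 2 is described as a first replicate. Arrays with the same pool number deviated together in the ischemic, drug control and control pools (r of 0.33 to 0.57 across probe sets, each above 0.1). This is the source of the pairing, which the labels do not state. Deviations within a group cancel, so r with the same number and r with other numbers are not independent. For treated ischemic pool 2 the r with pools of its number was 0.19 to 0.40, each above those with other numbers. It was 0.06 to 0.21 for pool 1, where other numbers reached 0.23 to 0.28, and -0.34 to -0.11 for pool 3.

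Every member probe set is reported. Other chaperone genes come from 7 lists, each gene by its brightest probe set; those named passed the threshold in a comparison or had 1 of the 2 smallest p-values of their list for ischemia over both arms, and Hspa8 is named besides, chosen after its values were seen. The members, lists and tests were chosen with earlier results of these data known. Alternatives covered scaling, floor, filter, blocks, labels, the variance model and leaving out each array.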

Additional observations from a re-analysis of the deposited data

Results flagged for a closer look

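In single treated brain 13, Hspd1 93277_at read 13.92 on the log2 scale, against a nearest value of 14.28 among the other brains. This gap was 0.721 of the range of the 5 brains, above Dixon's 95% critical value of 0.71 for 5 values. Chance alone marks about 1 in 20 groups in this way. This was the only such value among the 9 member probe sets looked at, all in the single brains, so 1 such value can arise by chance.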

How the results depend on the processing

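The ischemia differences of Dnajb1 and Bag3 96167_at over both drug arms passed the threshold in every alternative that rescaled the arrays, at 2.00 to 2.18 and 1.68 to 1.88 with 1 array left out, and at 2.07 to 2.17 and 1.78 to 1.82 otherwise. With the values as deposited the median difference of all probe sets was -2.48 for ischemia with the drug, -1.20 over both arms, -2.51 for the drug after ischemia, -3.76 for single brains against drug control pools and -3.77 against ischemic pools, so differences there carry the scale of the 7 arrays. Sign changes are listed here only where the probe set was called in the main setting or as deposited, so further ones without a call are left out. Turned in sign in this way were, for ischemia with the drug, Dnajb1 (-0.68), Bag3 96167_at (-0.92) and Hsp90aa1 95282_at (-2.29). Over both arms this held for Hsph1 (-0.42), and for the drug after ischemia for Bag3 96167_at (-2.56) and Cryab (-2.30). For single brains against drug control pools it held for Dnajb1 (-1.82), Bag3 161980_f_at (-2.20) and 96167_at (-2.02), Hsph1 (-2.97), Cryab (-3.76), Hsp90aa1 95282_at (-3.45), Hspd1 93277_at (-3.48) and Hspe1 (-3.11). Against ischemic pools it held for Dnajb1 (-3.86), Bag3 96167_at (-3.66), Hsph1 (-3.86) and Hsp90aa1 161869_i_at (-1.05) and 95282_at (-3.81). Member probe sets called as deposited were 0 without the drug, 2 with the drug (Hsp90aa1 95282_at and Hspd1 161140_r_at, in place of Dnajb1 and Bag3 96167_at), 0 over both arms, 9 for the drug after ischemia, 9 and 10 for the single brains.

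For ischemia without the drug, 2 in the main setting, the count was 1 with quantile normalization, 4 with a floor at the 40th percentile, 4 with no filter, 1 without the 2 arrays of conflicting labels, and 0 to 2 with 1 array left out. Hsph1 was among the 4 each time (adjusted p 0.0172 and 0.00308), and made it 3 with groups from the descriptions (0.0267), an intensity trend (0.00273) and that trend with a robust fit (0.00253). With the replicate block it was 4, and 1 with the block and without the treated ischemic pools, an alternative chosen after seeing the data. For ischemia with the drug, 2 in the main setting, it was 1 with quantile normalization, 0 with median scaling, 0 with a block for the scale set, 0 with groups from the descriptions, 0 without the 2 arrays and 0 with any array left out. Hsph1 made it 3 with a floor at the 40th percentile (adjusted p 0.0333), an intensity trend (0.00406) and that trend with a robust fit (0.00395), and took the place of Dnajb1 with no filter (0.00509). With the replicate block it was 1, and Bag3 96167_at then had an adjusted p of 0.0634 by limma. In that block, treated ischemic pools 1 and 3 did not follow the pools of their number more closely than all those of other numbers. Over both arms, 4 in the main setting, the scale set as a block gave 2, and it was 2 without the 2 arrays, and 3 to 4 with 1 array left out. Hspd1 93277_at made it 5 with a floor at the 40th percentile, an intensity trend and that trend with a robust fit. Bag3 161980_f_at lost its call with quantile normalization (adjusted p 0.124), median scaling (0.0726), no filter (0.0845), groups from the descriptions (0.0861), the scale set as a block (0.283) and without the 2 arrays (0.210). For single brains against drug control pools, 3 in the main setting, it was 5 with an intensity trend and robust fit and 2 to 4 with 1 array left out. The block changed no other member call. Apart from the deposited scale and array number, the cause of these changes was not tested. In all, of 1566 alternative values of single member probe sets, 1343 kept direction and side of the threshold, 107 had the other sign with no call in either setting, 61 lost a call, 36 gained a call and 19 turned in sign with a call. A floor at the 10th percentile was not run, since that percentile is -139.05 and has no log2. Probe sets at the floor, Hspb1 and Cryab 93279_at, limit what can be said of small heat shock proteins.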
